A study of Mus musculus with 24 samples.

Results

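The comparison set 2 libraries of 32D cells labelled Nat10+/- KO1 against 2 libraries labelled WT, all taken at 0 h, before any drug. These 4 of the 24 libraries of the series were chosen by their titles, and the 2 libraries labelled Nat10+/- KO2 at 0 h served to mark which differences the second knockout line shared. 32D is an IL-3-dependent myeloid line from mouse bone marrow. The series followed WT, KO1 and KO2 for 0, 3, 6 and 9 h in actinomycin D, an inhibitor of transcription, at 0.05 µg/ml, with 2 libraries for each genotype and time, in order to measure how long mRNAs last. All cells, WT included, were kept in medium that held 10% serum, and 10 ng/ml of IL-3 was supplied. KO1 and KO2 are each a single labelled line, and how they were made, whether each is 1 clone and which part of Nat10 was changed are not given in the sources used here. Both knockout lines are compared with the same 2 WT libraries, so their differences from WT are not independent of each other.

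Nat10 is the acetyltransferase that places N4-acetylcytidine (ac4C) on RNA. It modifies 18S ribosomal RNA and, together with the adaptor Thumpd1, some transfer RNAs, works in the nucleolus in the early assembly of the small ribosomal subunit, and has been described to acetylate mRNAs and change their stability and translation. IL-3 keeps 32D cells alive and dividing by signalling through Csf2rb, JAK2 and STAT5.

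The 4 libraries held between 15553998 and 17338939 gene counts, and all 24 held between 15361601 and 17338939. Levels below are CPM, read-pair counts scaled to a common library size with TMM factors, which correct for differences in RNA composition, and a change is the log2 ratio of KO1 to WT fitted by edgeR, with its standard error (SE). A gene is called when its Benjamini-Hochberg adjusted p in edgeR's quasi-likelihood test, over all 16167 genes tested, is under 0.05. Some myeloid genes were present: the IL-3 receptor subunits Csf2rb (453 and 441 CPM in WT and 391 and 389 CPM in KO1) and Il3ra (62.3 and 66.6 CPM in WT and 70.5 and 67.4 CPM in KO1) and the myeloid regulator Spi1 (97.8 and 94.5 CPM in WT and 105.2 and 100.4 CPM in KO1) were all well counted. Cebpa (300 counts in WT and 138 in KO1) and Prtn3 (1058 and 555) were counted too. Other myeloid markers checked were nearly absent, with Kit at 3 counts in WT and 0 in KO1, Mpo at 4 and 4 and Elane at 2 and 1. The labels call the cells lymphoblastocytes, but Ms4a1, Cd3e, Cd4 and Cd8a had 0 counts in all 4 libraries, so these defining B and T cell markers were not detected. The WT libraries at 0 h also held traces of connective tissue transcripts. Summed over 14 matrix and stromal genes, which leave out Vim and Acta2 of a list of 16, they had 158 and 119 counts, against 13 and 21 in KO1 and 19 and 19 in KO2. Spike-in RNA, which the labels say was added in equal amount, stood at 7.19 ± 0.379 CPM of gene counts in WT, 240.4 ± 0.29 in KO1 and 332.9 ± 12.9 in KO2 (SD, n = 2), so spike-ins were not used to scale the libraries.

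Nat10 itself (chr2:103551601-103591615 on GRCm39) was slightly lower in KO1. It was measured at 111 and 113 CPM in WT and 97.7 and 108 CPM in KO1, and at 99.2 and 95.2 CPM in KO2. The WT and KO1 libraries did not overlap, but 1 KO1 library lay close to WT. The change in KO1 was -0.12 (SE 0.0478, adjusted p = 0.0486), and without KO1 replicate 1 it was -0.04 with an adjusted p of 0.685. Counts over all exons cannot show whether 1 allele carries a small edit, so this level checks the label only in part. Thumpd1, the adaptor for tRNA acetylation, was higher, at 98.3 and 102 CPM in WT and 123 and 124 CPM in KO1, a change of 0.30 (SE 0.0422, adjusted p = 3.12e-09). Most tested genes near Nat10 on chromosome 2 were not called. Among the called ones, Caprin1 rose by 0.18 and Cat, which encodes the peroxide-degrading enzyme catalase, fell by 0.37. Lmo2 rose by 0.19, a call lost without WT replicate 2 (0.18) or KO1 replicate 2 (0.19).

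Across the transcriptome the differences were many and mostly small. Of the 16167 genes tested, 4416 (27.3%) were called, with 2433 (15.0%) higher and 1983 (12.3%) lower in KO1. The median size of a called rise was 1.19-fold and of a called fall 1.27-fold, while the median change over all genes was 0.01. Changes of at least 1.5-fold were called for 224 genes higher and 563 lower. At 2-fold the counts were 102 higher (0.631%) and 289 lower (1.79%). The balance between rises and falls depended on the scaling, since upper-quartile factors gave 1910 higher and 2377 lower calls, or 44.6% higher in place of 55.1%. Among the 9879 genes of at least 5 CPM, 3945 (39.9%) were called. Over these genes replicates lay close, a median of 0.0559 apart on the absolute log2 scale in WT and 0.056 in KO1, against 0.139 to 0.141 for 1 WT and 1 KO1 library. The libraries of WT and KO1 did not overlap in 9538 genes (59.0%), called or not. Calls were commoner at higher abundance. With the genes of at least 5 CPM split into 5 bins by mean CPM, 10.43% were higher and 15.28% lower in the lowest bin. In the highest bin 37.5% were higher and 20.24% lower. The shares over all genes given beside the lists below are therefore not matched to the abundance of list members.

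Large changes lay mostly in genes of low abundance. Of the genes called at 2-fold or more, 93 of the 102 rises and 238 of the 289 falls had a mean under 5 CPM. Of the 238 low-abundance genes that fell this far, 95 were also called lower in KO1 at 3 h of actinomycin D. The counts were 91 at 6 h and 73 at 9 h. The WT libraries at 0 h held the connective tissue traces described above, and the part of those traces in these falls was not tested. Of the 51 genes of at least 5 CPM that fell 2-fold or more, 48 were also called lower in KO2, and 42 were again lower in KO1 at 3 h. Only 9 genes of that abundance rose 2-fold or more, namely Ggt1, Rhag, Csn3, Syne1, Grap, Il23a, Tcrg-C1, Cnbd2 and Esr1, and 7 of the 9 were called higher in KO2.

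**Figure D1:**
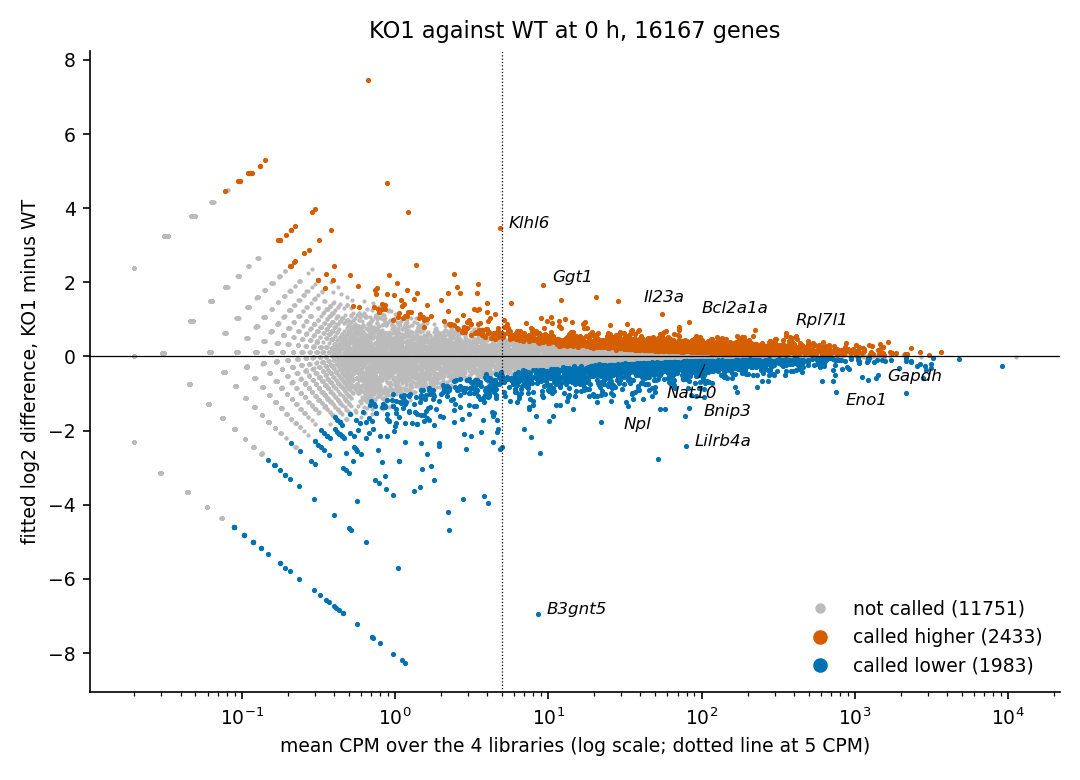
Fitted log2 difference between KO1 and WT at 0 h (vertical axis) against mean CPM of the 4 libraries (horizontal axis, log scale), 1 point per gene tested. Rises are orange, falls blue and genes not called grey. Most of the 102 rises and 289 falls of at least 2-fold sit left of the dotted line at 5 CPM, and the diagonal rows of points there are genes with 0 or few counts in one group, whose fitted size is not a bound.

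Several genes of myeloid and lymphoid immune function were among the largest falls. B3gnt5 (chr16:19578958-19591503), which starts the lacto-series chains of glycosphingolipids, was at 16.8 and 17.1 CPM in WT and 0.0663 and 0.188 CPM in KO1. That is 572 counts in WT and 4 in KO1, a 132.5-fold difference, and KO2 was at 0.375 and 0.249 CPM. The gene stayed near absent in KO1 through actinomycin D, with 0, 0 and 1 counts at 3, 6 and 9 h against 101, 56 and 57 in WT.

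The paired receptor genes Lilr4b and Lilrb4a lie side by side on chromosome 10 and both fell. Lilr4b was at 89.4 and 92.4 CPM in WT and 13.5 and 13.1 CPM in KO1, a change of -2.77 (SE 0.0863, adjusted p = 8.54e-51), and Lilrb4a at 131 and 134 CPM in WT and 26.7 and 23.1 CPM in KO1, a change of -2.42 (SE 0.0638, adjusted p = 4.42e-57). No KO1 library came near WT for either. Their sequences are alike and 35.85% of the exon bases of Lilrb4a are shared with predicted genes, so how reads divide between them is uncertain. In KO2 they were at 11.9 and 12.8 and 21.3 and 22.1 CPM, called lower than WT too.

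Il18r1, the receptor subunit that binds interleukin 18, was at 15.6 and 15 CPM in WT and 2.39 and 2.63 CPM in KO1 (change -2.6). Lyz2, the lysozyme of myeloid cells, went from 11.8 and 10.4 to 2.85 and 2.88 CPM (-1.95). Npl, an enzyme that breaks down sialic acid, was abundant in WT at 118 and 116 CPM and fell to 39.6 and 38 (-1.6). For all 3 genes the WT and KO1 libraries stood far apart, and KO2 was lower than WT as well. Other falls of this size included Zfp277, a zinc finger protein (-2.18), Anxa1, the phospholipid-binding annexin A1 (-1.76), Nkg7, a membrane protein of cytotoxic granules (-1.74), Nhsl2 (-1.59) and Atp2b4, a plasma membrane calcium pump (-1.43).

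The largest rises among genes of at least 5 CPM were smaller. Ggt1, the surface enzyme that cleaves glutathione, was at 3.73 and 3.96 CPM in WT and 16.1 and 13.1 CPM in KO1, a change of 1.92 (SE 0.17, adjusted p = 9.84e-18). Rhag, the Rh-associated glycoprotein of red cell membranes, was at 10.4 and 9.81 CPM in WT and 31.2 and 30 CPM in KO1, a change of 1.6 (SE 0.11, adjusted p = 4.24e-23). Syne1, the nuclear envelope protein nesprin-1, was at 15.6 and 14.1 CPM in WT and 41.4 and 42.3 CPM in KO1, a change of 1.5 (SE 0.11, adjusted p = 2.19e-23). None of these groups overlapped, and all 3 genes were called higher in KO2. Csn3, a milk casein gene, rose by 1.53 and the signalling adaptor Grap by 1.43. Further rises were the T cell receptor gamma constant gene Tcrg-C1 (1.05), Cnbd2 (1.03), the oestrogen receptor Esr1 (1.01), the C-type lectin Clec4d (0.99) and the OX40 ligand Tnfsf4 (0.96). Cnbd2 shares 22.58% of its exon bases with other genes. Bcl2a1a, an inhibitor of apoptosis in the BCL2 family, was at 56 and 59.2 CPM in WT and 106 and 112 CPM in KO1 (0.92), although its near-identical copies make its share of reads uncertain.

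**Figure D2:**
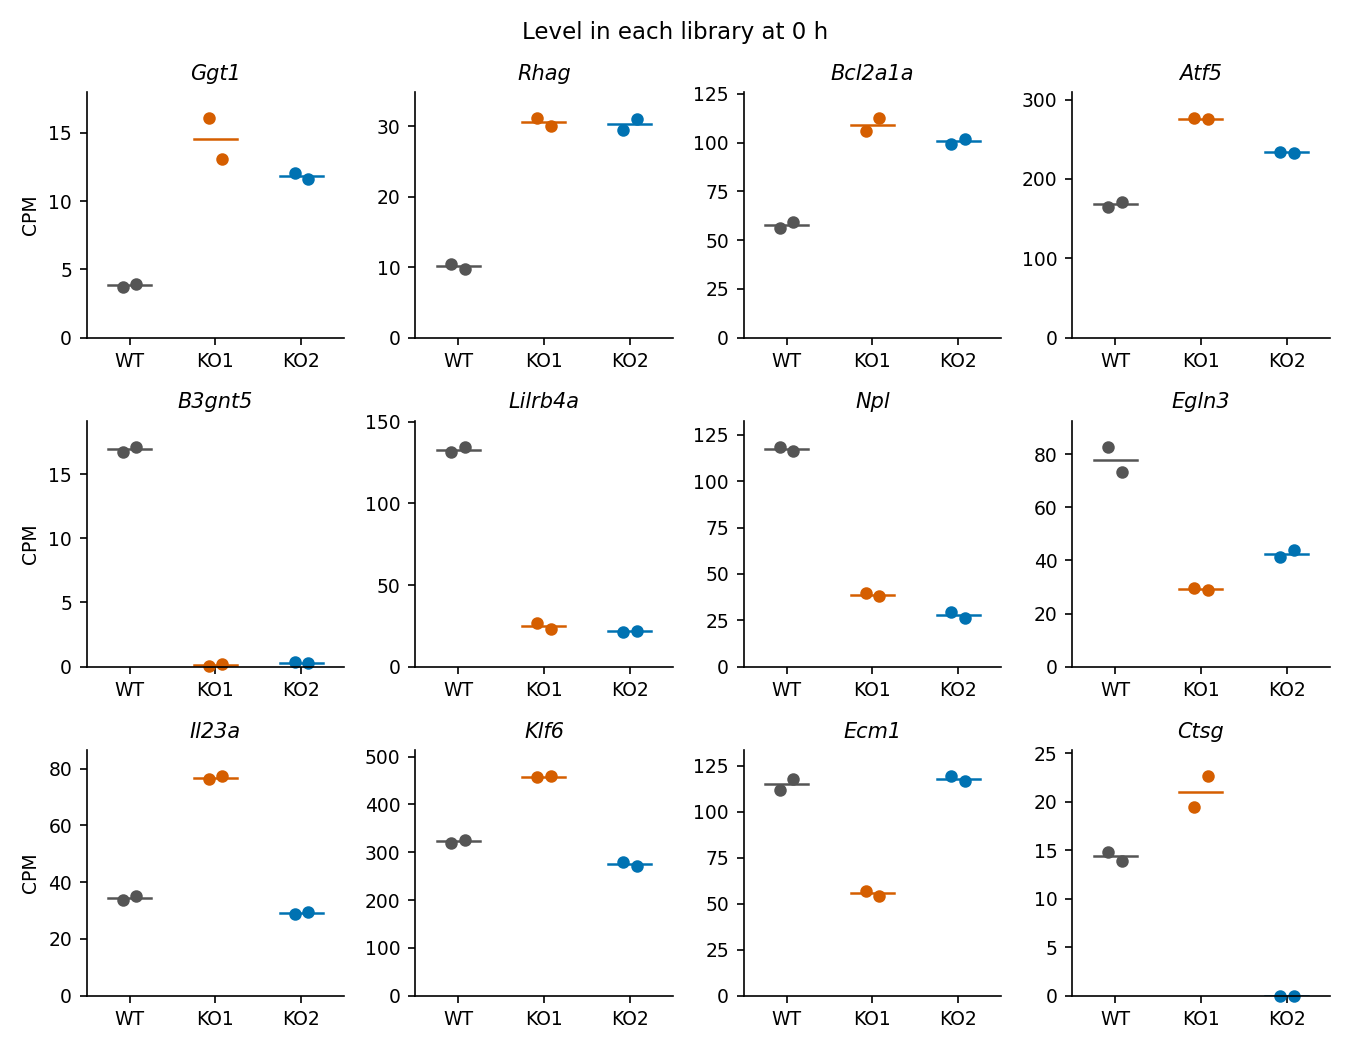
CPM in each of the 6 libraries at 0 h for 12 genes, 1 panel per gene with its own axis from 0, points for libraries and a bar for the mean of 2. In the upper 2 rows of panels KO1 and KO2 lie on the same side of WT (B3gnt5 is near 0 in both), and in the bottom row KO1 stands apart from both WT and KO2.

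Abundant genes moved less in fold but carried many reads. The ribosomal protein-like gene Rpl7l1 was at 283 and 272 CPM in WT and 437 and 429 CPM in KO1, a rise of 0.64. Atf5, a transcription factor of the integrated stress response, was at 165 and 171 CPM in WT and 276 and 275 CPM in KO1, a rise of 0.71, and Orc5, a subunit of the origin recognition complex, rose by 0.71. On the lower side were the glycolytic genes Eno1 and Gpi1, the glucose transporter Slc2a3 (-0.67) and the extracellular matrix gene Emilin2 (-0.65).

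Genes of sugar breakdown were lower nearly throughout. Of the 17 glycolytic enzymes tested, 16 were called lower and 0 higher, with a median change of -0.51, against 12.3% called lower and a median of 0.01 over all genes. The summed level of the list was 9506 and 9538 CPM in WT and 6550 and 6578 CPM in KO1. Eno1, enolase, was at 1000 and 997 CPM in WT and 511 and 518 CPM in KO1, a change of -0.96 (SE 0.0190, adjusted p = 2.39e-68). Gapdh was at 1625 and 1644 CPM in WT and 1106 and 1092 CPM in KO1, a change of -0.57. The 2 libraries of each group lay close together and well apart from the other group for both.

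Hk3, a hexokinase of myeloid cells, fell by 1.07, the largest change in the list, and Pfkp, a phosphofructokinase, fell by 0.20, the smallest. Between them were Gpi1 (-0.66), Pgam1 (-0.66), the lactate-forming Ldha (-0.56), the pyruvate kinase gene Pkm (-0.51), Pgk1 (-0.50), Tpi1 (-0.38), Pfkl (-0.37) and Hk2 (-0.21). In KO2, 15 of the 17 were called lower, all of them shared with KO1, with a median of -0.31, against 14.3% of all genes called lower there. A second list held glucose and lactate transport with the enzymes that switch pyruvate use. There 7 of 13 (53.85%, against 12.3% over all genes) were lower in KO1 and 0 higher, with a median of -0.33. They included the glucose transporters Slc2a3 and Slc2a1 (-0.32), the glycogen-side enzyme Pgm1 (-0.51) and Pdk1 (-0.48), the kinase that shuts pyruvate dehydrogenase.

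Glycolytic genes are textbook targets of the hypoxia-inducible factors (HIFs), and other hypoxia-inducible genes moved in the same direction in most of their calls. Of 26 tested, 14 (53.85%) were lower and 2 (7.69%) higher, against 12.3% and 15.0% over all genes. The median was -0.16, and 12 of the 14 falls were shared by KO2. Egln3, the prolyl hydroxylase that marks HIF for destruction, was at 82.6 and 73.2 CPM in WT and 29.6 and 29 CPM in KO1, a change of -1.41 (SE 0.0612, adjusted p = 1.20e-38). Bnip3, which acts in mitophagy, was at 119.9 and 119.5 CPM in WT and 47.8 and 43.5 CPM in KO1, a change of -1.39 (SE 0.0525, adjusted p = 1.18e-43), with 22.25% of its exon bases shared with a predicted gene. Both groups were clear of each other in both genes.

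Fam162a (-0.76), the collagen prolyl hydroxylase P4ha1 (-0.57) and Bnip3l (-0.30) fell as well. Epas1, which encodes HIF-2α, had 12 counts in WT and 1 in KO1, and its call was lost without WT replicate 2 or either KO1 library (adjusted p between 0.0502 and 0.361). At 6 h of actinomycin D the gene was called higher in KO1. Vhl, part of the ubiquitin ligase that removes HIF, rose by 0.20, and Jmjd6, an oxygen-using hydroxylase, by 0.20. Both calls were lost without WT replicate 2 (adjusted p = 0.144 and 0.0725), and that of Vhl also without KO1 replicate 1 (0.135). Not all targets followed: Vegfa had a change of 0.06 (adjusted p = 0.163), called only without WT replicate 2 (0.10, adjusted p = 0.0316). Hif1a itself had 0.02 (adjusted p = 0.764), which turned to -0.01 with upper-quartile factors.

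HIFs bind the core letters ACGTG or GCGTG, and promoters of 4 of these lower genes are shown with each match in capitals, on either strand (CACGT and CACGC are the reverse complements). The windows run from 250 bases before to 50 after a RefSeq start site on GRCm38.p6, a different build from that of the counts, and are written 5′ to 3′ along the gene. The window of Bnip3 is chr7:138909457-138909756 (minus strand) with 5 matches, that of Egln3 chr12:54203825-54204124 (minus) with 1, that of Pgk1 chrX:106186850-106187149 (plus) with 2, and that of Eno1 chr4:150236947-150237246 (plus) with 2. These 4 were chosen to show matches, and the window of Gpi1, also lower, held 0.
Bnip3: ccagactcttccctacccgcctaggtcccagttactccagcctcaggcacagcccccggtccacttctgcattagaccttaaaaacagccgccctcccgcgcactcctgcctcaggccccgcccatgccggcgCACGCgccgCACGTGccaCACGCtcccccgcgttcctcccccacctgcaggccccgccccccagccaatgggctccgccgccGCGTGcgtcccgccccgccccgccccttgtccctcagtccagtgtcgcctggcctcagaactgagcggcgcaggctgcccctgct
Egln3: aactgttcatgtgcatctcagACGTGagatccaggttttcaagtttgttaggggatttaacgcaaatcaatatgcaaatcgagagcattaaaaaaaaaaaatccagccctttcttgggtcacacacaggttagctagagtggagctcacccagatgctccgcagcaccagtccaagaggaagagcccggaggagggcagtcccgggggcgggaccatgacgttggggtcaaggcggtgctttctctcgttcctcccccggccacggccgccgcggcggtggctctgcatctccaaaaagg
Pgk1: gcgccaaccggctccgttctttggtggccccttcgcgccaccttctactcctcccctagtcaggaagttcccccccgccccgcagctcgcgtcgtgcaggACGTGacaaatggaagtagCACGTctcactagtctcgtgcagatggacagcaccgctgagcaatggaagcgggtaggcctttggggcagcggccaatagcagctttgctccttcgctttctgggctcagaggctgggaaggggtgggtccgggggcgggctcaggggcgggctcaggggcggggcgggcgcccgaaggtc
Eno1: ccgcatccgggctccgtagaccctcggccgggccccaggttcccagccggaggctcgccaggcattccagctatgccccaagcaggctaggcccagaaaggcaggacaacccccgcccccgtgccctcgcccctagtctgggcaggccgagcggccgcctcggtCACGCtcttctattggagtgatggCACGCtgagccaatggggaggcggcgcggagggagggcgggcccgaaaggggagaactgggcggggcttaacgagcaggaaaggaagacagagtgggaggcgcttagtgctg
Such matches are common. Among 13302 windows of 10529 tested genes, 59.2% held at least 1, with 65.3% of windows of genes called higher, 59.3% of those called lower and 57.5% of those not called. The share was 76.9% (20 of 26 windows) for the glycolytic enzymes and 85.2% (23 of 27) for the other hypoxia-inducible genes, but also 79.0% (49 of 62) for the ribosome assembly factors, a list in which calls were all higher. Windows of a gene with several start sites can overlap, and a match describes letters and not binding.

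**Figure D3:**
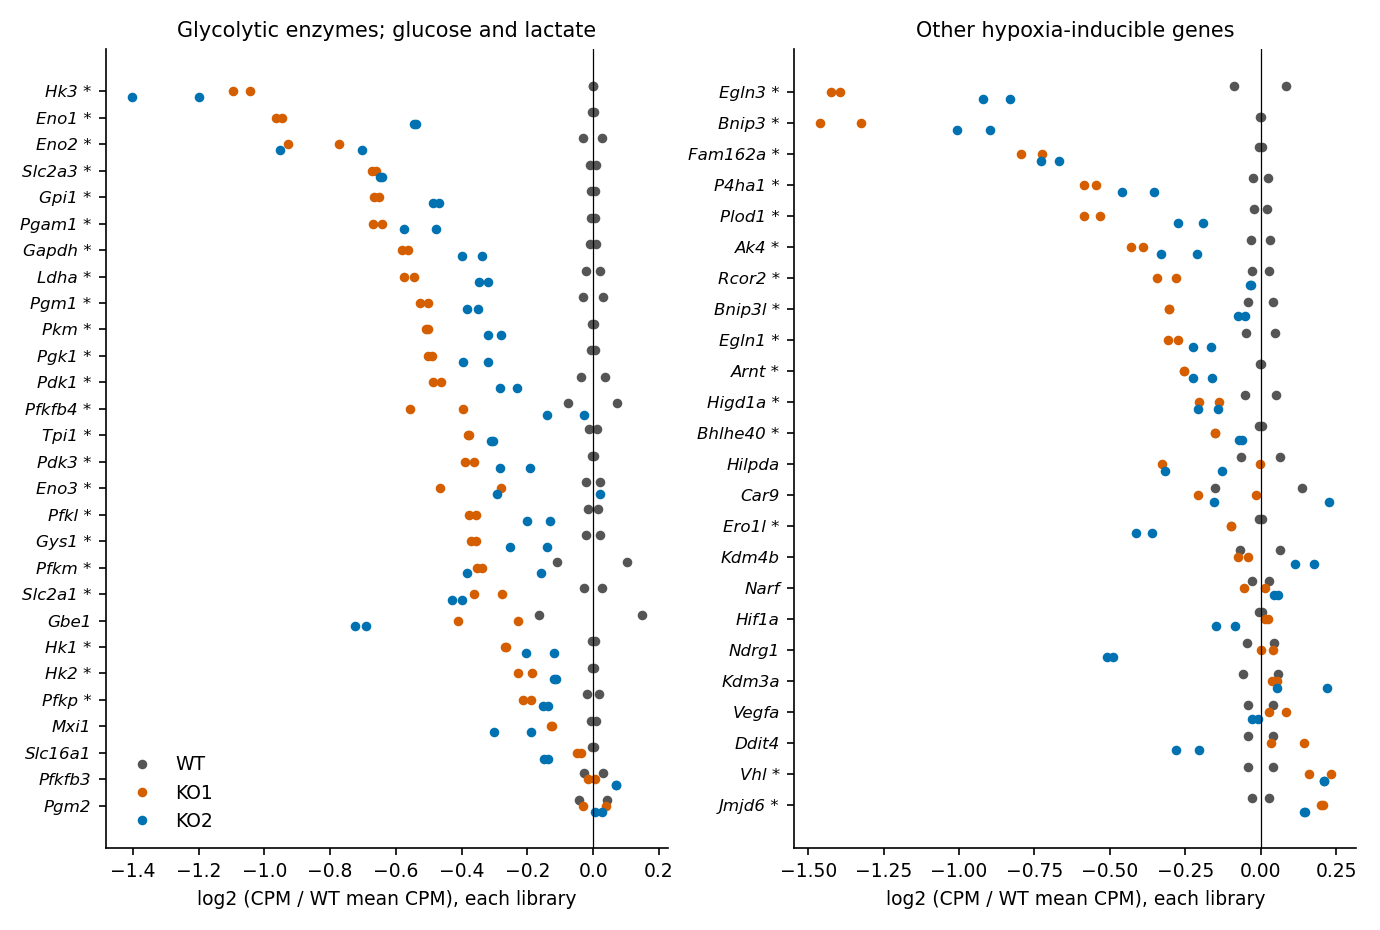
Log2 of each library's CPM over the WT mean at 0 h (horizontal axis) for list members of at least 5 CPM in WT, with WT grey, KO1 orange and KO2 blue, and genes called in KO1 marked by an asterisk. Both KO1 libraries lie left of 0 for every glycolytic enzyme shown, with Hk3 and Eno1 farthest, while Hif1a and Vegfa sit near 0.

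Many sterol and fatty acid genes were lower. Of 24 genes of cholesterol synthesis and uptake, 11 (45.8%) were lower and 2 (8.33%) higher (median -0.12), against 12.3% and 15.0% over all genes. Of the 11 falls, 10 were shared by KO2. The falls included the late-pathway reductase Dhcr7 (-0.69), the early enzyme Hmgcs1 (-0.42) and the regulator Srebf2 (-0.39). Fdps fell by 1.88, but 26.71% of its exon bases are shared with a predicted gene. The rises were the sterol exporter Abcg1 (0.30) and Fdft1, squalene synthase (0.24), the latter not called without replicate 1 of WT (adjusted p = 0.0868) or of KO1 (0.0952).

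Of 19 fatty acid genes, 11 (57.9%) were lower and 2 (10.5%) higher (median -0.14), against 12.3% and 15.0% over all genes. Scd2, a desaturase that makes monounsaturated fatty acids, was at 291 and 298 CPM in WT and 166 and 165 CPM in KO1 (-0.83). Its relative Scd1 had 31 counts in WT and 0 in KO1, at least 9.57-fold higher in WT when the 2 KO1 libraries together are given a floor of 3 counts, but WT too had 0 counts of Scd1 at 3, 6 and 9 h. The connective tissue traces were likewise seen in WT at 0 h, and their part in the Scd1 difference was not tested. Mid1ip1, an activator of acetyl-CoA carboxylase, fell by 1.07, but 25.52% of its exon bases are shared with a predicted gene. The acyl-CoA synthetases Acsl4 (0.37) and Acsl5 (0.17) rose.

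Genes that detoxify peroxides and electrophiles also tended to be lower, with 16 of 30 (53.3%) lower, 5 (16.7%) higher and a median of -0.15. Over all genes 12.3% were lower and 15.0% higher. Of the 16 falls, 15 were shared by KO2. The glutathione transferases Gstm1 (-1.22) and Gsta4 (-0.75) and the peroxiredoxin Prdx5 (-0.48) had the largest falls. The call of Gstm1 was lost without WT replicate 2 (adjusted p = 0.124) and without KO1 replicate 1 (0.129) or 2 (0.0844). Taldo1, of the pentose phosphate pathway, fell by 0.40. The 5 rises included Ggt1, above, and the glutathione peroxidase Gpx1 (0.32). In the iron list 8 of 17 (47.1%) were lower and 2 (11.8%) higher (median -0.11). The falls included the ferritin heavy chain Fth1 (-0.36) and the haem-degrading Hmox1 (-0.34).

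Genes for building ribosomes were higher. Of 68 ribosome assembly factors, 48 were called higher and 0 lower, with a median of 0.20, against 15.0% higher over all genes. Their summed level was 10910 and 10930 CPM in WT and 12500 and 12620 CPM in KO1. Utp20, of the small-subunit processome, was at 95.6 and 97.2 CPM in WT and 128 and 141 CPM in KO1, a change of 0.48 (SE 0.0438, adjusted p = 6.68e-17), and Nop14, of the same complex, at 156 and 152 CPM in WT and 213 and 217 CPM in KO1 (0.48). In both, every KO1 library was above every WT library.

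Dkc1, the pseudouridine synthase of box H/ACA particles, rose by 0.44, the processing factors Rrp12 by 0.41 and Heatr1 by 0.30, the box C/D protein Nop56 by 0.27 and the nucleolar proteins Ncl by 0.17 and Npm1 by 0.09. KO2 shared 30 of the 48 rises, and its median for the list was 0.09. The RNA polymerase I machinery had 6 of 15 higher (40.0%, against 15.0% over all genes) and 0 lower (median 0.16). These rises were led by the initiation factors Rrn3 (0.30) and Ubtf (0.29), and all 6 were shared by KO2. Of 12 host transcripts of small nucleolar RNAs, 6 were higher and 0 lower (median 0.19), led by Snhg12 (0.46) and Snhg15 (0.45). The ribosomal proteins themselves did not move one way: 16 of 79 (20.25%) were higher and 21 (26.58%) lower, with a median of -0.0018. The called members ran from Rps2 (0.24) to Rpl37 (-0.14).

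Myc, the growth regulator that drives ribosome and nucleotide genes, was at 344 and 353 CPM in WT and 481 and 492 CPM in KO1, a change of 0.48 (SE 0.0315, adjusted p = 1.54e-25), with KO2 at 426 and 444 CPM. In polyamine and nucleotide synthesis, 14 of 26 (53.85%) were higher and 2 (7.69%) lower (median 0.12), against 15.0% and 12.3% over all genes. The rises included the spermidine synthase Srm (0.53), the nucleoside diphosphate kinase Nme1 (0.44), the pyrimidine enzyme Cad (0.42) and the ornithine decarboxylase Odc1 (0.28). The falls were Impdh1 (-0.32) and Hprt (-0.13). The E-box letters CACGTG, a palindrome bound by Myc and related factors, were in 9.53% of all promoter windows, against 21% (13 of 62) of windows of ribosome assembly factors. Lists with more falls than rises held the letters at like shares, with 27.3% (9 of 33) of windows of lysosome and autophagy genes and 21.1% (4 of 19) of those of cholesterol genes.

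Enzymes that modify RNA were more often higher than lower, with 15 of 33 (45.45%) higher and 3 (9.09%) lower, Nat10 among the latter (median 0.10). Over all genes 15.0% were higher and 12.3% lower. The m7G tRNA methyltransferase Mettl1 (0.61), the m1A methyltransferase subunit Trmt61a (0.59) and the m6A methyltransferase Mettl3 (0.37) rose. The demethylase Alkbh5 (-0.21) fell, and so did the RNA-binding protein Igf2bp2 (-0.45), whose call was lost without either WT library or KO1 replicate 2 (adjusted p between 0.083 and 0.338). KO2 shared 12 of the 15 rises.

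The integrated stress response, in which ATF4 turns on genes for amino acid supply, was higher in part. Of 25 genes, 14 were higher and 2 lower (median 0.15), against shares of 15.0% and 12.3% over all genes. KO2 shared 11 of the rises. Besides Atf5, the pseudokinase Trib3 (0.39), Nupr1 (0.46), the leucine sensor Sesn2 (0.39), Cebpg (0.39) and Atf4 itself (0.18) rose. Asns, asparagine synthetase and a usual marker of the response, had 0.06 (adjusted p = 0.188), and the proline enzyme Pycr1 fell by 0.32, a call lost without WT replicate 2 (0.0542) or KO1 replicate 1 (0.0979). Of 20 cytosolic aminoacyl-tRNA synthetases, 12 (60.0%) were higher and 1 (5.0%) lower (median 0.11), led by Nars (0.35) and Lars (0.32), with Qars the fall (-0.19). The letters TGATGNAA, an ATF4-type element searched on both strands, were in 2.33% of all windows and in 23.1% (6 of 26) of windows of the integrated stress response list.

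Targets of the tumour suppressor p53 were mostly higher. Of 35 tested, 25 (71.4%) were higher and 3 (8.57%) lower (median 0.26), against 15.0% and 12.3% over all genes. Among the rises, 16 were shared by KO2. Mdm2, the ubiquitin ligase that degrades p53 and is its target, was at 249 and 257 CPM in WT and 353 and 349 CPM in KO1, a change of 0.47 (SE 0.0253, adjusted p = 1.45e-31). Trp53 itself was at 261 and 254 CPM in WT and 310.2 and 307 CPM in KO1, a change of 0.26. The pro-apoptotic Bbc3 (0.55), the death-domain adaptor Pidd1 (0.68), Gtse1 (0.56), the death receptor Eda2r (0.54), Phlda3 (0.51), Aen (0.46) and Zmat3 (0.29) rose.

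Cdkn1a, the best known cell cycle brake among p53 targets, rose by only 0.07 (adjusted p = 0.00703) and was called lower in KO2. Its rise was not called without WT replicate 1 (0.095) or with upper-quartile factors (0.239). The falls were the cyclin G gene Ccng2 (-0.54), Sesn1 (-0.47) and the DNA damage sensor Ddb2 (-0.50). Ddb2 shares 23.83% of its exon bases with the gene Acp2. In the BCL2 family 7 of 15 (46.7%, against 15.0% over all genes) were higher and 0 lower (median 0.18). These held members on both sides of cell death, Bbc3 and Bax (0.18) as promoters and Bcl2a1a as an inhibitor.

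Genes of DNA replication were called higher far more often than lower. Of 42 G1/S and replication genes, 21 were higher and 2 lower (median 0.16), against shares of 15.0% and 12.3% over all genes. KO2 shared 20 of the 21 rises. The replicative helicase subunits Cdc45 (0.36) and Mcm2 (0.33) and the nucleotide enzymes Tyms (0.42) and Rrm2 (0.40) rose. Exo1 (-0.38) and cyclin E1, Ccne1 (-0.32), fell, but neither was called without WT replicate 2 (adjusted p = 0.143 and 0.0518), nor Exo1 without KO1 replicate 1 (0.138). Of 40 G2/M genes, 9 (22.5%) were higher and 4 (10.0%) lower, not far from the shares over all genes. Their median of 0.03 became -0.01 with upper-quartile factors. They ran from the checkpoint gene Mad2l1 (0.36) to the securin gene Pttg1 (-0.35). Among inhibitors of the G1 kinases, Cdkn2c (0.39) rose and Cdkn2d (-0.41) fell.

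**Figure D4:**
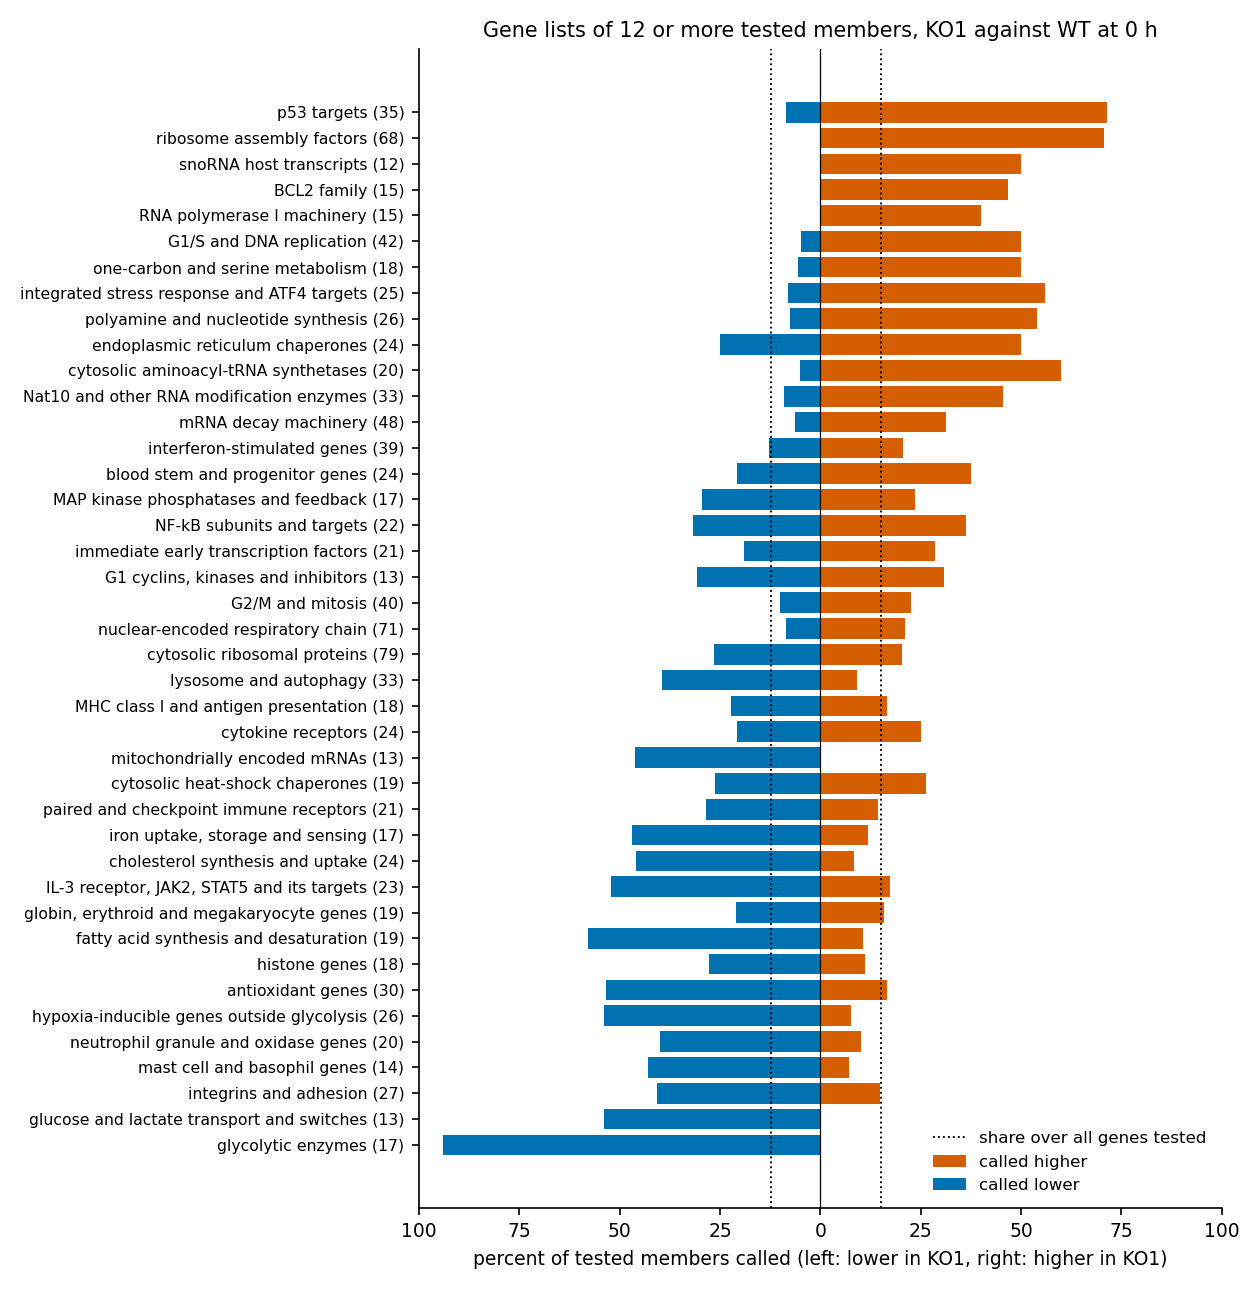
Percent of tested members called lower (blue, left) and higher (orange, right) in KO1 against WT at 0 h for each gene list of 12 or more tested members, whose number is in parentheses, ordered by median change. Dotted lines mark the shares over all genes, 12.3% lower and 15.0% higher. Glycolytic enzymes, with 16 of 17 lower, and p53 targets, with 25 of 35 higher, are at the ends.

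The IL-3 pathway, on which these cells depend, was lower in most of its calls. Of 23 genes of the receptor, JAK2, STAT5 and their targets, 12 (52.2%) were lower and 4 (17.4%) higher (median -0.12). Over all genes 12.3% were lower and 15.0% higher. The receptor subunit Csf2rb fell by 0.20, the kinase Jak2 by 0.20 and the transcription factor Stat5a by 0.18. The call of Stat5a was lost with any 1 of the 4 libraries left out (adjusted p between 0.068 and 0.0954), and that of Jak2 without WT replicate 2 (0.0842) or KO1 replicate 1 (0.059). Among STAT5 targets the feedback inhibitors Socs3 (-0.56) and Cish (-0.36) and the survival kinase Pim2 (-0.45) fell, while Pim1 (0.24), the cytokine Osm (0.37) and the repressor Gfi1 (0.48) rose. KO2 shared 6 of the 12 falls and 1 of the 4 rises, and its median for the list was -0.00067.

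Granule genes of myeloid cells were also lower more often than higher. Of 20 neutrophil granule and oxidase genes, 8 (40.0%) were lower and 2 (10.0%) higher (median -0.16), against 12.3% and 15.0% over all genes. All 8 falls were shared by KO2. Besides Lyz2 they included haptoglobin, Hp (-1.82), and proteinase 3, Prtn3, at 35 and 27.6 CPM in WT and 19.5 and 16.4 CPM in KO1 (-0.81). Of 8 macrophage and monocyte genes tested, 3 (37.5%) were lower and 1 (12.5%) higher. The marker Adgre1 was at 49.5 and 48.6 CPM in WT and 22.2 and 22.1 CPM in KO1 (-1.15). Cd68 fell by 0.72 and Cd14 by 0.49, while the Fc receptor gene Fcgr1 rose by 0.54. Cytokine receptors split, with 6 of 24 higher and 5 lower (median -0.04). C1qa and C1qb, which mark mature macrophages, had 0 counts in all 4 libraries.

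In the integrin and adhesion list 11 of 27 (40.7%) were lower and 4 (14.8%) higher (median -0.18), against 12.3% and 15.0% over all genes. The integrin Itgb4 (-0.86) was among the falls and Icam2 (0.50) and Itga4 (0.40) were among the rises. Lineage regulators split, with Cebpa, which drives granulocyte fate, at 9.12 and 8.63 CPM in WT and 4.18 and 4.70 CPM in KO1 (-1.0) and Bmi1, a Polycomb gene of stem cells, rising by 0.44. Of 33 lysosome and autophagy genes, 13 (39.4%) were lower and 3 (9.09%) higher (median -0.02), with the autophagy gene Wipi1 among the falls (-0.43).

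KO2 shared a large part of these differences. Against the same WT libraries KO2 had 4747 calls (29.4%), and 2703 genes were called in the same direction in both lines, 1447 higher and 1256 lower. That is 61.21% of the KO1 calls and 56.94% of the KO2 calls. A further 1561 KO1 calls were not called in KO2, 85 were higher in KO1 and lower in KO2, and 67 the reverse. The direct comparison of the lines, KO2 against KO1, called 2722 genes (16.8%), 1178 higher (7.29%) and 1544 lower (9.55%) in KO2. Of the KO1 calls that KO2 did not share, 826 also differed between the lines in the matching direction, 490 higher and 336 lower in KO1.

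Il23a, a subunit of interleukin 23, had the largest rise of these among genes above a mean of 5 CPM. It was at 33.9 and 35 CPM in WT and 76.2 and 77.3 CPM in KO1 and at 28.7 and 29.7 CPM in KO2, so that only KO1 stood apart upward and KO2 was called lower than WT. The difference between the lines was -1.4 (KO2 against KO1, SE 0.0904, adjusted p = 6.18e-26). Nos2, inducible nitric oxide synthase, was at 10.2 and 13.5 CPM in WT and 23 and 21.4 CPM in KO1 and 6.88 and 8.72 CPM in KO2, again with KO2 below WT. Cnbd2, the Notch coactivator Maml2 (0.86) and the lectin Clec4e (0.70) were among the other rises not shared. Of smaller rises of this kind, the transcription factor Klf6 was at 320.1 and 326 CPM in WT and 458 and 459 CPM in KO1 with 279 and 271 in KO2, and the granule protease Ctsg, cathepsin G, at 14.8 and 13.9 CPM in WT and 19.4 and 22.6 CPM in KO1 with 0 counts in KO2.

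Ecm1, a secreted matrix protein, was the most abundant of the 6 largest falls above 5 CPM that were not shared and differed between the lines. It was at 112 and 118 CPM in WT and 57 and 54.4 CPM in KO1, with KO2 on the WT level at 119 and 116 CPM. The hormone gene Fgf23 (-1.19), the potassium channel subunit Kcnab3 (-1.0), the growth factor receptor Fgfr3 (-0.80), Eya2 (-0.77) and the TGF-β co-receptor Tgfbr3 (-0.76) followed. In each of these 6 genes KO2 was above KO1 in the direct comparison.

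Interferon-stimulated genes were called in KO1 at shares near those over all genes, and nearly all of them were higher in KO2. In KO1, 8 of 39 were higher and 5 lower (20.51% and 12.82%, against 15.0% and 12.3% over all genes; median 0.05), whereas in KO2 38 of 39 were higher and 0 lower (median 3.10). In KO1 the adaptor of interferon signalling Stat2 fell by 0.31, with libraries at 64.3 and 62.3 CPM in WT and 48.6 and 53.2 CPM in KO1 and KO2 at 147 and 156 CPM. KO2 exceeded KO1 in Stat2 by 1.57 (SE 0.0499, adjusted p = 8.77e-51). Ifit2 fell in KO1 by 0.44, a call lost without KO1 replicate 2 (0.114). The rises in KO1 included Usp18 (0.36, and 4.17 in KO2) and Oas2 (0.35, and 4.43 in KO2). Usp18 was not called without KO1 replicate 1 (0.0919), nor Oas2 without WT replicate 2 (0.146). Members of the Oas and Ifit families are alike in sequence, so their shares of reads are uncertain.

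Actinomycin D gave a second view of the same lines with other libraries. Of the 4416 genes called at 0 h, 983 rises and 897 falls were called in the same direction at 3 h, and 665 were called in the opposite one. At 6 h the same-direction calls were 874 and 744, with 757 opposite, and at 9 h 818 and 545, with 865 opposite. The share of all genes called was 36.8% at 3 h, 35.7% at 6 h and 34.4% at 9 h, more than before the drug, and 872 of the 0 h calls (454 higher and 418 lower) held their direction at all 3 times. Levels are relative to all counted mRNA at each time.

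The lists differed in how they carried over. Over all genes, 16.7%, 17.4% and 15.1% were called lower at 3, 6 and 9 h, and 20.1%, 18.4% and 19.3% higher. Glycolytic enzymes had 15, 11 and 10 of 17 lower at these times and 0, 1 and 2 higher, with medians of -0.51, -0.27 and -0.13. P53 targets had 21, 25 and 24 of 35 higher and 3, 2 and 2 lower, with medians of 0.20, 0.23 and 0.16. Ribosome assembly factors had 48 of 68 higher and 3 lower at 3 h, but 31 and 16 higher at 6 and 9 h, when 10 and 11 were lower. G1/S genes turned, with 0 higher and 33 of 42 lower at 3 h (median -0.32). Ribosomal proteins, split before the drug, had 75, 76 and 76 of 79 lower at the later times.

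Among genes that kept their direction at every time, several differed widely between WT and KO1 at 0 h. Klhl6, a lymphoid ubiquitin ligase adaptor, had 27 counts in WT and 274 in KO1 at 0 h (change 3.46), and stayed higher at 3 h (3.08), 6 h (3.37) and 9 h (3.54). The adult beta-globin gene Hbb-bs (3.88), the blood group gene Kel (1.96) and the adhesion receptor Adgrd1 (2.46) behaved alike in direction. Fzd7, a Wnt receptor, had 25 counts in WT and 0 in KO1 at 0 h, then 13, 59 and 90 in WT against 0 in KO1 at 3, 6 and 9 h. The selenium carrier Selenop had 20 counts in WT and 0 in KO1 at 0 h, a call lost without WT replicate 1 (adjusted p = 0.107). The lysosomal sulfatase Arsb (-3.58), the phosphodiesterase Pde3b (-3.84) and clusterin, Clu (-3.62), were lower at every time too. These genes were chosen after their values were seen.

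**Figure D5:**
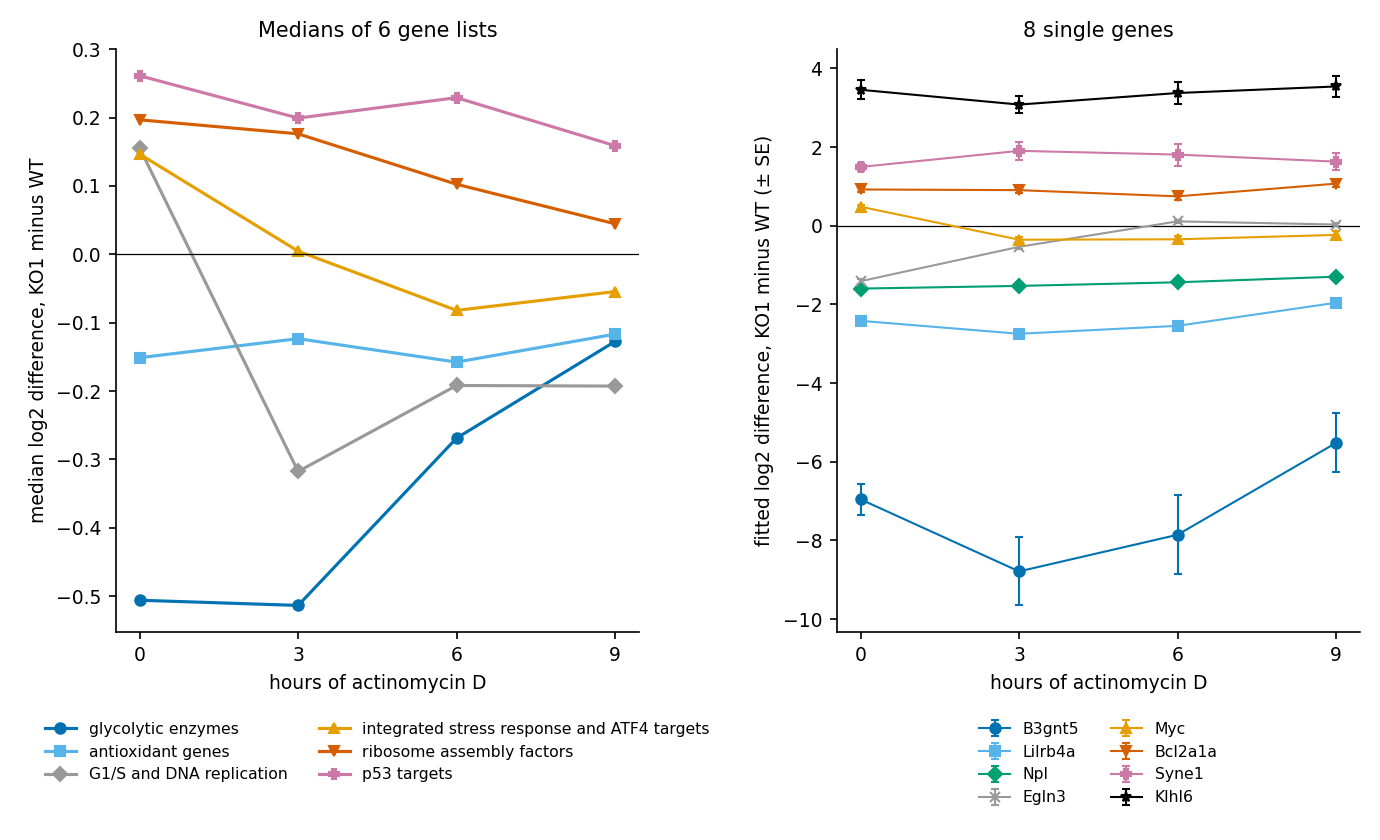
Difference between KO1 and WT (log2) at 0, 3, 6 and 9 h of actinomycin D, as medians of 6 gene lists on the left and as fitted values with their standard errors for 8 genes on the right. The glycolytic median moves from -0.51 toward 0 and the G1/S median changes sign after 0 h, whereas Klhl6, Syne1, Npl and Lilrb4a keep their direction. B3gnt5 had 0 counts in KO1 at 3 and 6 h, so its fitted values there are not bounds.

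Genes lost altogether were few. With at least 2 CPM in WT, 2 genes had 0 counts in both KO1 libraries, Bgn with 79 counts in WT and Mgp with 75, at least 24.4-fold and 23.2-fold higher in WT by the same floor, and 0 genes showed the reverse. Both encode proteins of connective tissue matrix. Bgn had 0 counts in the WT libraries at 3, 6 and 9 h as well. In the stromal list 6 of 7 tested genes (85.7%) were lower (median -2.30), against 12.3% over all genes. They included fibronectin, Fn1, with 48 counts in WT and 0 in KO1, Sparc with 34 counts in WT and 1 in KO1 and the collagen gene Col1a1 with 39 counts in WT and 9 in KO1. Without WT replicate 1 or KO1 replicate 1, Col1a1 was not called (adjusted p = 0.0558 and 0.204). In the WT libraries at 3 to 9 h the summed counts of the 14 stromal genes were 25 to 48. KO1 had 13 and 21 at 0 h and 15 to 44 at 3 to 9 h. The excess over KO1 was thus measured in the WT libraries at 0 h and not in those of later times.

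Neighbouring genes were in places called in the same direction. Among genes of at least 5 CPM 39.9% were called, and whether such runs exceed what that share gives was not tested. The longest run of neighbouring tested genes all called lower held 9 genes over chr1:152642293-153785469 on GRCm39, from Arpc5 to Glul. It included Npl and the glutamine synthetase gene Glul (-0.24), and 8 of the 9 were lower in KO2. A run of 8 lower genes spanned chr7:3337605-3571030, with Myadm (-1.24), the receptor gene Tarm1 (-0.41) and several predicted or unnamed genes, and all 8 were lower in KO2. The longest run of higher genes held 7 over chr5:31350571-31670248, with Nrbp1 (0.31) and Ppm1g (0.22), 6 of them higher in KO2. Strand was not used in counting, so overlapping neighbours in such runs can share reads.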

How the data were processed

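Counts of read pairs per gene were deposited by the authors, 1 table per library. Per the file headers they came from featureCounts 1.6.3 in paired-end mode without use of strand, on Ensembl 105 annotation of GRCm39 joined to spike-in sequences, and the submitters' processing notes also name STAR and DESeq2. The 92 spike-in transcripts were removed, and 0 entries named no gene. Symbols came from a GENCODE M21 table, which named 52081 of 55414 identifiers, and coordinates from the count tables (GRCm39). Promoters came from RefSeq on GRCm38.p6.

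Genes were kept with filterByExpr (minimum count 10, leaving 16167), scaled by TMM and tested in edgeR 4.0.16 (R 4.3.3) with a quasi-likelihood model of 12 groups, which share 1 estimate of spread (biological coefficient of variation 0.0206). The script was tested on simulated data. Alternatives were DESeq2 1.42.0, other scalings and filters, fits to the 0 h libraries alone, a replicate block, and leaving out each library.

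Both tables of each of the 12 groups name the same alignment file in their headers, yet their counts differed by more than sampling noise (chi-square per degree of freedom 1.599 for WT and 1.472 for KO1 at 0 h). The labels speak of biological replicates without saying that cultures were separate, so p-values measure no more than how far these libraries spread, which may be technical. Same-numbered WT and KO1 libraries did not deviate together (correlation 0.0098), so the numbers do not pair them. Floors and counts carry counting error only.

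The members, lists, tests and naming rule were chosen with earlier results of these data known. Named genes were Nat10 and Thumpd1; above a mean level of 5 CPM, the 12 largest rises and falls and the 6 largest each way not shared by KO2 and differing between the lines; the 4 most abundant each way changed at least 1.5-fold; genes at 0 counts in 1 group and at least 2 CPM in the other; and in every list the 2 called members that rose and fell most. Neighbours, further list members and the genes followed through time were named after their values were seen. Some genes that this rule names are not reported here.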

Additional observations from a re-analysis of the deposited data

Results flagged for a closer look

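Several named genes were called in opposite directions against WT in KO1 and KO2, and the direct test of KO2 against KO1 (edgeR, log2) gave the size of each gap. For genes higher in KO1 and lower in KO2 it was -1.40 for Il23a, -1.51 for Nos2, -0.65 for Fdft1, -0.53 for Acsl4, -0.23 for Rpl37a, -0.81 for Gfi1, -0.74 for Klf6, -0.74 for Lcn2, -0.71 for Il6, -0.56 for Hspa5, -0.22 for Ncoa4, -0.15 for Cdkn1a and -0.15 for Npm1. Ctsg, cathepsin G, had a fitted -11.44, with 654 counts in KO1 and 0 in KO2, so that value is not a bound. For genes lower in KO1 and higher in KO2 it was 1.08 for Tgfbr3, 1.08 for Ifit2, 1.57 for Stat2, 1.79 for H2-K1, 3.63 for Ly6a, 0.70 for Alox5 and 1.22 for Bst2.

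Other named genes were called in one direction at 0 h and in the opposite one at 3, 6 and 9 h of actinomycin D. The difference of KO1 from WT at 9 h minus that at 0 h (interaction test in edgeR, log2) was -0.49 for Ubtf, -0.39 for Rpl37a, -0.55 for Nek2, -0.72 for Gfi1, -0.72 for Myc, -0.50 for Lcn2, -0.63 for Gnas, -0.53 for H2afz, -0.64 for Atp5e, -0.22 for Ncoa4, -0.45 for Pim1 and -0.55 for Mcm2. All of these were called higher in KO1 before the drug, but for Nek2 that call was lost with any 1 of the 4 libraries left out (adjusted p between 0.0546 and 0.212), with DESeq2 (0.0919), upper-quartile factors (0.0993) or library totals (0.055) and in the fit to the 6 libraries of 0 h (0.0577). Myc, for example, was at 344 and 353 CPM in WT and 481 and 492 CPM in KO1 at 0 h. Gnas shares 21.58% of its exon bases with other genes.

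Spike-in counts, as CPM of gene counts, which enter no comparison above, were 33.4-fold higher in KO1 than in WT at 0 h. With 2 libraries a group, single libraries could not be tested as outliers.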

How the results depend on the processing

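Calls for KO1 against WT at 0 h lay between 3468 (DESeq2) and 4575 (the 6 libraries of 0 h alone) over the alternative tools, scalings, filters and fits, against 4416, and between 3314 and 3420 with 1 library left out. The counts of genes of at least 2-fold depended on low abundance: DESeq2 gave 57 higher, and a filter at a mean of 5 CPM gave 8 higher and 54 lower. With 1 library left out, 1856 to 1953 genes were higher and 1436 to 1521 lower, 79 to 97 at least 2-fold higher and 246 to 254 lower, and 2024 to 2280 were shared by KO2. Nat10 did not keep its call under every alternative. It was -0.13 with DESeq2 (adjusted p = 0.104), -0.11 with no filter (edgeR, 0.147) and between -0.0435 and -0.19 with 1 library left out (0.0113 to 0.685). Hif1a, not called, changed sign to -0.014 with upper-quartile factors, -0.0016 with 6 libraries and -0.0020 with 4. In a fit with the replicate number as a block, 4467 genes were called and Nat10 was at -0.12 (adjusted p = 0.0268). Of 288 other named genes, 51 lost their call under at least 1 alternative and 1 gained one. The causes were not tested. Medians of the G2/M and respiratory chain lists changed sign with upper-quartile factors, to -0.0079 and -0.010. With 2 libraries a group and 1 line, the genotype and the line cannot be told apart, and counts under about 5 CPM limit the precision of a change.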

Other observations

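Further groups of genes are given here beside the 15.0% higher and 12.3% lower over all genes, shares not matched to their abundance. In the most abundant of 5 bins of genes by mean CPM, 37.5% were higher and 20.24% lower. Of 71 nuclear-encoded subunits of the respiratory chain, 15 (21.1%) were higher and 6 (8.45%) lower (median 0.02). The ATP synthase gene Atp5g1 (0.26) was among the rises and the complex I gene Ndufv3 (-0.51) among the falls. Of 13 mRNAs encoded by mitochondria, 6 were lower and 0 higher (median -0.05), with the oxidase subunit mt-Co1 at 9953 and 10020.0 CPM in WT and 8309 and 8373 CPM in KO1 (-0.26). In the mRNA decay machinery 15 of 48 were higher and 3 lower (median 0.09), with the exosome subunit Exosc8 (0.35) and the Lsm ring gene Lsm3 (0.32) rising and the 5′ exonuclease Xrn1 falling by 0.15. Lsm3 was not called without WT replicate 2 (adjusted p = 0.0888) or KO1 replicate 2 (0.208). The call of Xrn1 was lost with any 1 of the 4 libraries left out (adjusted p between 0.0866 and 0.281), with DESeq2 (0.0926), with no filter (0.137) and with the replicate block (0.0555). Chaperones of the endoplasmic reticulum split, with 12 of 24 higher and 6 lower (median 0.12). Hspa5, the master chaperone BiP, rose by 0.38 and the sensor Atf6 by 0.43, while P4hb (-0.33) and Calr (-0.20) fell. Cytosolic heat-shock chaperones were even, with 5 higher and 5 lower of 19, and the constitutive Hspa8 fell by 0.34.

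In the NF-kB list 8 of 22 (36.4%) were higher and 7 (31.8%) lower (median 0.04), against 15.0% and 12.3% over all genes. The subunit Relb (0.61) and the co-regulator Nfkbiz (0.55) rose, whereas the target adaptor Traf1 (-1.47) and Bcl3 (-1.28) fell. Traf1 was not called without KO1 replicate 2 (adjusted p = 0.0768), nor Bcl3 without WT replicate 2 (0.133) or KO1 replicate 1 (0.108). Dusp5, a phosphatase that switches off ERK, was at 4.97 and 5.26 CPM in WT and 1.52 and 0.815 CPM in KO1 (-2.13), with 22.12% of its exon bases shared with another gene. Of 18 histone genes, 2 were higher and 5 lower (median -0.15). The variant H2afz rose by 0.26, and the linker histone Hist1h1d fell by 0.85. In one-carbon and serine metabolism 9 of 18 were higher and 1 lower (median 0.15), with the mitochondrial synthetase Mthfd1l rising by 0.27.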
